A study of Mus musculus with 14 samples.

Results

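The 40 cell cycle and mitosis genes described here were chosen by name: 15 act in DNA replication and S phase, 18 in G2 and mitosis, 3 are D-type cyclins and 4 are inhibitors of the cyclin-dependent kinases (CDKs). A probe set annotated with that gene symbol alone was found for 39 of them, and the brightest one was taken where a gene had several. Ccnb1 was not analysed here. All 39 passed the filter on dim probe sets and stand among 13453 genes tested.

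The study measured RNA of bone marrow stromal cells from C57BL/6J mice, 6 to 8 weeks old and labelled wild type, that carry pOBcol2.3-GFP, a reporter in which a fragment of the type I collagen promoter drives green fluorescent protein in osteoblasts. The groups were G-CSF-treated osteoblasts (3 arrays), untreated osteoblasts (3 arrays), G-CSF-treated endothelial cells (4 arrays) and untreated endothelial cells (4 arrays). G-CSF is a growth factor of the neutrophil lineage that is also used to mobilise stem cells into the blood, and it was injected under the skin at 250 ug/kg. The sample titles give 5 days of treatment, while the protocol text gives 5 days on the G-CSF arrays and 7 days on the untreated ones. The untreated mice received vehicle alone according to that text. Osteoblasts were sorted as CD45- ter119- CD31- GFP+ cells and endothelial cells as CD45- ter119- GFP- CD31+ cells, so both gates exclude cells bearing the leukocyte antigen CD45 and the erythroid antigen ter119. The labels do not state that arrays with different replicate numbers came from different mice, so p-values measure the spread between these samples, which may be technical.

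Dividing cells pass through G1, S phase, G2 and mitosis, and each step needs its own set of proteins. D-type cyclins with their kinases start G1 progression, and E2F factors and cyclin E open S phase. The Mcm helicase, put in place by its loader, unwinds the DNA so that it can be copied. Cyclin A, cyclin B and Cdk1 bring the cell into mitosis, where spindle motors, the kinetochore checkpoint and Cdc20 separate the chromosomes. The transcripts of the S phase and mitosis sets are abundant only in cycling cells, which in bone marrow are mainly blood cell precursors, whereas mature osteoblasts and resting endothelium divide rarely. CDK inhibitors such as Cdkn1a and Cdkn1c hold the cycle back.

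Promoters of mitotic genes commonly carry CCAAT boxes, bound by NF-Y, and the cell cycle genes homology region, whose core is TTTGAA, while S phase genes commonly carry E2F sites. In RefSeq promoter sequences of mouse build GRCm38.p6, running 250 bases upstream to 50 bases downstream of the gene start, 31 of the 40 genes had an entry, with 35 promoters in all. On either strand, CCAAT was found in 12 of 14 promoters of the mitosis genes (85.7%), TTTGAA in 10 of 14 (71.4%) and both words in 10 of 14. The S phase genes had CCAAT nearly as often, in 10 of 14 promoters (71.4%), and TTTGAA in 2 of 14 (14.3%). Among all 32851 promoters of the same length the shares were 37.4% for CCAAT, 17.9% for TTTGAA and 6.95% for both. The E2F-type words TTTGGCGC, TTTCGCGC, TTTCCCGC and TTTGGCGG, of which at least 1 was found in 5 of 14 promoters of the S phase genes (35.7%), stood in 2.37% of all promoters. These matches are a description of letters, not of bound sites. The 250 bases upstream of the start of 3 mitosis genes and 1 S phase gene, each of them highest in untreated osteoblast replicate 2 among the osteoblast arrays, show these words in capitals. The words can overlap one another, as the E2F-type words of Mcm6 do.
Mki67 (chr7:135716380-135716629, minus strand): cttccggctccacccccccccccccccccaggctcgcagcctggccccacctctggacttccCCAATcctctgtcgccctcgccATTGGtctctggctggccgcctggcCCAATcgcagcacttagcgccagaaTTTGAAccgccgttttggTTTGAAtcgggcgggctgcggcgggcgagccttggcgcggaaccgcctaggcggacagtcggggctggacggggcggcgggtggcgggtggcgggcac
Cdk1 (chr10:69352913-69353162, minus strand): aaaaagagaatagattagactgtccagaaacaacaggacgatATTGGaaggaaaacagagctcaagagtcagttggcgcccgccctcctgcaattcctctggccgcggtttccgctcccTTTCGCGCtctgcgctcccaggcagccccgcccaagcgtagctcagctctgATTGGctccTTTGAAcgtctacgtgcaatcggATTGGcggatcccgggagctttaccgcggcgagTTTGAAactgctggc
Cdc20 (chr4:118437344-118437593, minus strand): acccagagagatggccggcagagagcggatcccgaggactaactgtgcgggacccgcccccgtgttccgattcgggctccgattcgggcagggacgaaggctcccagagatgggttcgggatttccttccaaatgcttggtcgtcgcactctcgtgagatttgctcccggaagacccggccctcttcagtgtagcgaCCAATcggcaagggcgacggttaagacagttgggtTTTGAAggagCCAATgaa
Mcm6 (chr1:128359706-128359955, minus strand): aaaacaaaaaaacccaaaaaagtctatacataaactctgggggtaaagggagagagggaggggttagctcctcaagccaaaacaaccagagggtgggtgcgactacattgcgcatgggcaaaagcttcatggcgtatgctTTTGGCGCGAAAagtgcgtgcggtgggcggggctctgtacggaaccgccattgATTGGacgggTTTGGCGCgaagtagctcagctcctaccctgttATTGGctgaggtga

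Values below are log2(intensity + 16) of the deposited array intensities, and differences are on that scale, which understates changes of dim genes. Levels of different genes were not compared, since probe sets differ in brightness. The authors' scaling left the trimmed mean intensity of every array between 498.7 and 500.0, and the number of arrays limits the precision. Endothelial markers separated the sorts, with all 11 lower in osteoblasts in both states. Osteoblast markers were on in both sorts, and 2 of 8 were higher in untreated osteoblasts and 8 of 8 in G-CSF-treated osteoblasts, each against endothelial cells. The ratio of the 3' to the 5' actin probe sets, a sign of RNA degradation or short cDNA, ran from 2.71 to 11.03 on osteoblast arrays and from 2.62 to 6.57 on endothelial arrays. Intensities of osteoblast replicates 2 and 3 of both groups were printed with more decimals than those of the other 10 arrays.

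The sorts also held signal of blood cells, whose precursors divide. The 7 of 8 neutrophil precursor markers that were measured averaged 11.64, 12.29 and 11.87 in G-CSF osteoblasts (replicates 1, 2 and 3), against 8.61, 13.19 and 8.999 in untreated osteoblasts. Their summed intensity was 39743 to 66733 in G-CSF osteoblasts and 4431 to 106291 in untreated osteoblasts. In endothelial cells the same markers averaged 11.48 to 12.32 after G-CSF and 10.50 to 11.23 in untreated cells. Untreated osteoblast replicate 2 carried more of this marker signal than any other array, and untreated replicates 1 and 3 carried less than any other. The 8 markers shared by leukocytes, Ptprc (CD45) among them, averaged 11.07 to 12.45 in G-CSF osteoblasts and 8.93, 12.23 and 8.83 in untreated osteoblasts. The 8 measured of 12 erythroid markers averaged 7.60 to 8.68 in G-CSF osteoblasts and 9.50, 11.57 and 9.52 in untreated osteoblasts. Cd3e, Cd3g and Cd3d of T cells, Ncr1 and Il2rb of NK cells and the globin gene Hba-a1 were below the filter. In bulk RNA, a lower number of cells of a type and less RNA per cell cannot be told apart.

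**Figure D1:**
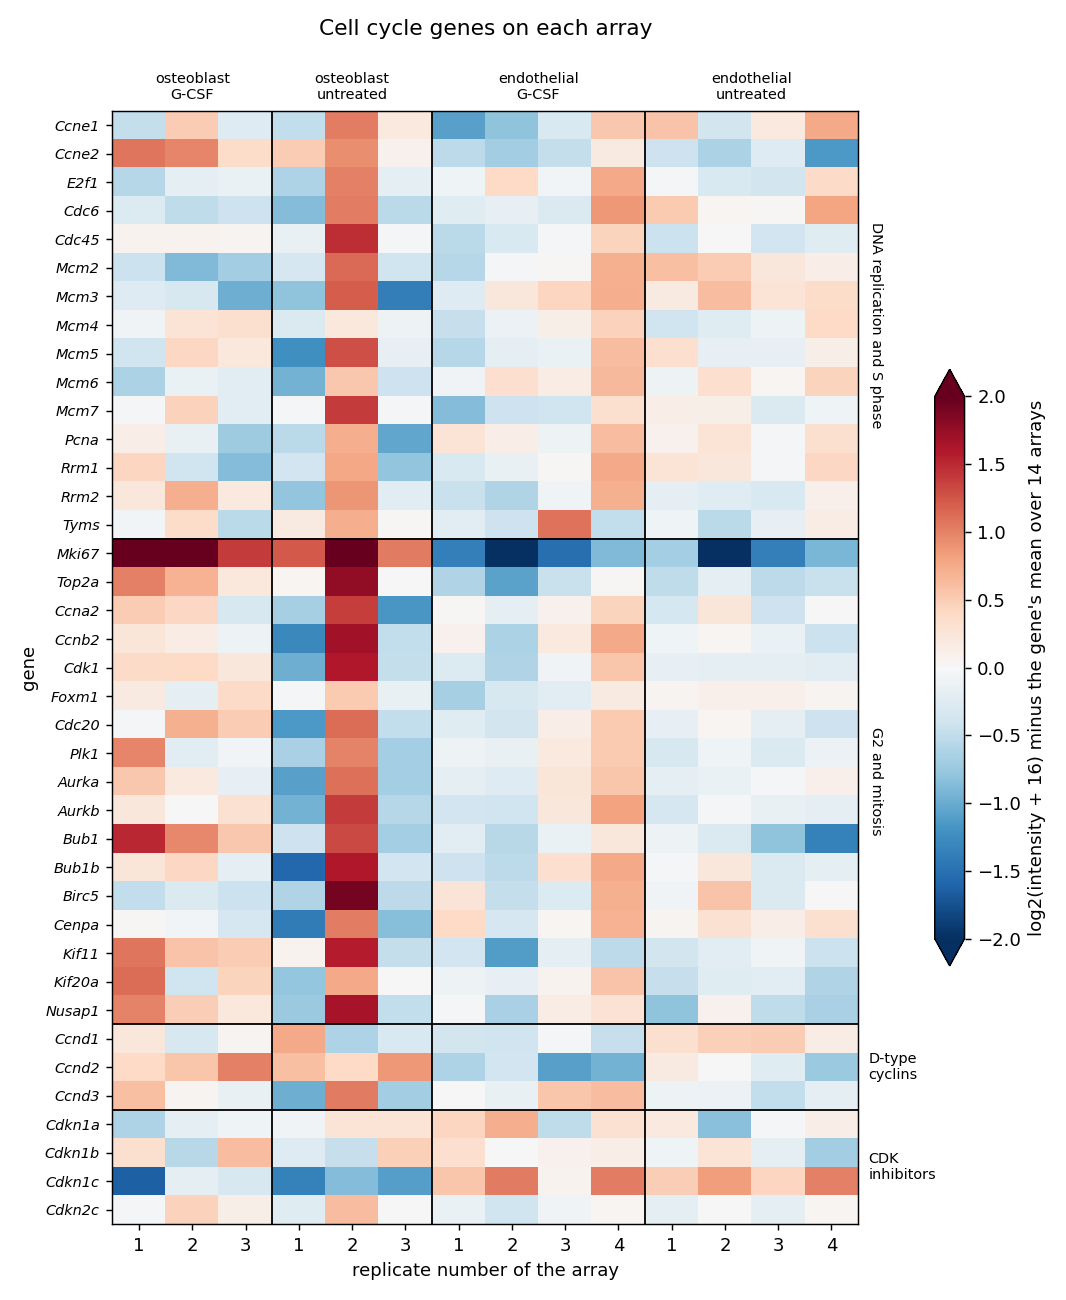
Level of each of the 39 genes (rows, grouped by role) on each of the 14 arrays (columns, grouped by sort and treatment), as log2(intensity + 16) minus the mean of that gene over the 14 arrays. Most S phase and mitosis rows are highest in untreated osteoblast replicate 2 within the osteoblast arrays and in G-CSF replicate 4 within the endothelial arrays, and Mki67 is high in all 6 osteoblast arrays.

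In each sort 1 array stood highest for most S phase and mitosis genes. Among the 6 osteoblast arrays, untreated replicate 2 was the highest for 30 of the 39 genes (76.9%), against 27.1% of all genes tested. These 30 included 13 of 15 S phase genes and 15 of 17 mitosis genes. It lay above untreated replicates 1 and 3 for all 15 S phase and all 17 mitosis genes, and for 42.7% of all genes. Cdk1, the kinase that drives entry into mitosis, measured 9.87, 9.88 and 9.70 in G-CSF osteoblasts and 8.51, 11.08 and 9.01 in untreated osteoblasts. Its G-CSF values thus lay between those of the untreated arrays. Mcm5, a subunit of the replicative helicase, measured 11.74, 12.54 and 12.34 in G-CSF osteoblasts and 10.90, 13.43 and 11.97 in untreated osteoblasts. Here too the untreated group spanned the whole G-CSF group. For 14 of 17 mitosis genes and 3 of 15 S phase genes the 3 G-CSF arrays all lay above untreated replicates 1 and 3 and below untreated replicate 2, an order found for 4.96% of all genes.

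The averages of each role showed the same arrays. The 17 mitosis genes averaged 9.89, 9.61 and 9.43 in G-CSF osteoblasts and 8.60, 10.69 and 8.83 in untreated osteoblasts. The 15 S phase genes averaged 10.18, 10.35 and 10.01 in G-CSF osteoblasts and 9.81, 11.22 and 9.93 in untreated osteoblasts. The neutrophil precursor, leukocyte and erythroid markers of replicate 2 given above were also the highest of the untreated osteoblast arrays, while its osteoblast markers averaged 12.75, the lowest of the 6 osteoblast arrays, and the part of other cells in the cell cycle values was not tested. The median SD of the 39 genes was 0.349 in G-CSF osteoblasts and 0.914 in untreated osteoblasts, where the median of all genes was 0.353 and 0.403 in the same 2 groups.

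Among the 8 endothelial arrays, G-CSF replicate 4 was the highest for 30 of the 39 genes (76.9%), against 10.4% of all genes, and these again included 13 S phase and 15 mitosis genes. The mitosis genes averaged 8.999, 8.62, 9.18 and 9.62 in G-CSF endothelial cells and 8.98, 9.14, 8.94 and 8.93 in untreated endothelial cells. The S phase genes averaged 9.87, 10.08, 10.26 and 10.79 in G-CSF endothelial cells and 10.34, 10.24, 10.18 and 10.46 in untreated endothelial cells. The untreated arrays lay close together and inside the range of the treated ones. The lowest arrays differed by role, since G-CSF replicate 1 was the lowest endothelial array for 8 of 15 S phase genes and G-CSF replicate 2 for 10 of 17 mitosis genes. Of all genes, 11.7% were lowest on G-CSF replicate 1 and 14.5% on G-CSF replicate 2. On G-CSF replicate 4 the erythroid markers averaged 9.78, against 7.36 to 7.63 on the other G-CSF endothelial arrays. Its neutrophil precursor and leukocyte markers averaged 12.32 each and were the highest of the 8 endothelial arrays. The part of these cells in the cell cycle values was not tested.

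**Figure D2:**
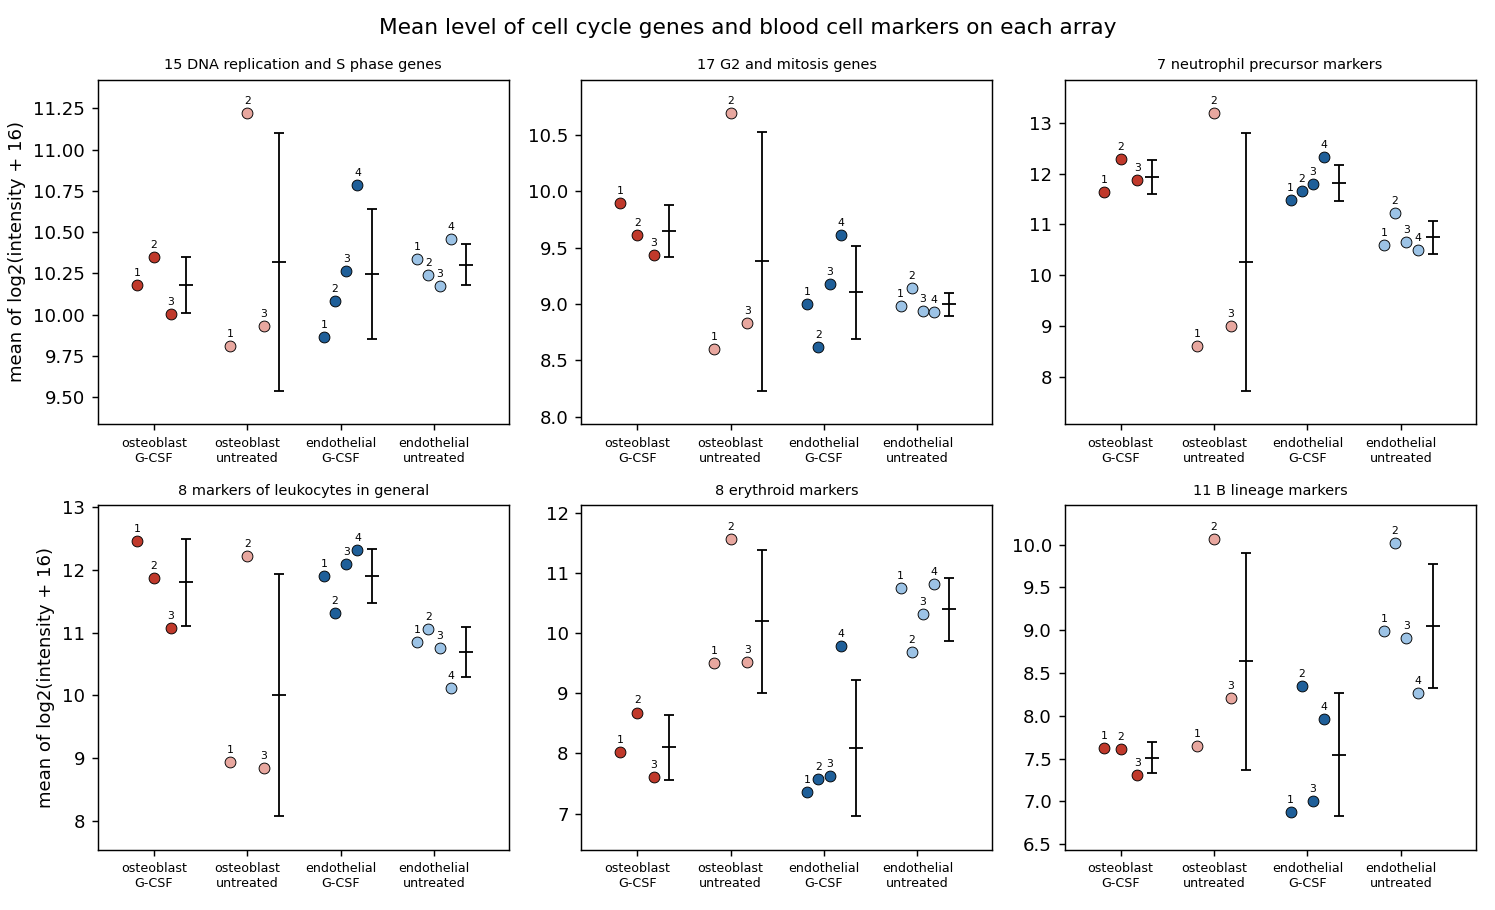
Mean log2(intensity + 16) of the S phase genes, the mitosis genes and 4 sets of blood cell markers on each array, with replicate numbers beside the points and bars for the mean ± SD of each group. Untreated osteoblast replicate 2 is the highest osteoblast array in 5 of the 6 panels; in the panel of general leukocyte markers it measures 12.23, below G-CSF replicate 1 at 12.45.

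G-CSF against untreated osteoblasts asked how the cytokine changes the bone-forming cells. None of the 39 genes was called, that is, none passed an adjusted p under 0.05 in limma's moderated test with Benjamini-Hochberg adjustment over all genes tested. Across all genes 0.186% were called higher and 0.0446% lower. At an unadjusted p under 0.05, 0 genes of the set were higher and 1, Mcm2, was lower, against 4.8% and 4.05% of all genes. The changes ran between -0.80 and 0.93, with adjusted p-values from 0.563 to 0.994, and 27 of 39 were above 0 (45.6% of all genes were). That count turned on single arrays: it was 13 without untreated replicate 1, 34 without untreated replicate 2 and 17 without untreated replicate 3, with a median change of -0.13, 0.55 and -0.09 in the same order. The 95% intervals were wide, with a median width of 1.73, so a change had to be large to be told from 0 with 3 arrays a group.

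Of the S phase genes, 5 of 15 were above 0, with a median change of -0.19 against -0.04 for all genes. Mcm2, which is part of the helicase, measured 9.72, 9.28 and 9.46 in G-CSF osteoblasts and 9.81, 11.29 and 9.75 in untreated osteoblasts. All G-CSF values lay below all untreated ones, with replicate 2 far above the other untreated arrays, and the change was -0.80 ± 0.37 (SE; adjusted p = 0.563). Rrm2, the small subunit of ribonucleotide reductase that supplies deoxynucleotides, measured 12.42, 12.92 and 12.37 in G-CSF osteoblasts and 11.40, 13.06 and 11.97 in untreated osteoblasts. Its groups overlapped, with a change of 0.42 ± 0.38 (SE; adjusted p = 0.834).

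Of the mitosis genes, 16 of 17 were above 0, with a median change of 0.29. Bub1, a kinase of the spindle checkpoint, measured 9.41, 8.87 and 8.45 in G-CSF osteoblasts and 7.50, 9.22 and 7.23 in untreated osteoblasts. Untreated replicates 1 and 3 were below every G-CSF array and replicate 2 was among them. The group means were 8.91 ± 0.48 in G-CSF osteoblasts and 7.99 ± 1.08 in untreated osteoblasts (SD, n = 3 each), and the limma change was 0.93 ± 0.46 (SE; adjusted p = 0.602). Birc5, or survivin, of the chromosomal passenger complex, was the exception in direction. It measured 8.25, 8.44 and 8.30 in G-CSF osteoblasts and 8.13, 10.66 and 8.22 in untreated osteoblasts, a change of -0.67 ± 0.52 (SE; adjusted p = 0.800) that rested on replicate 2 and was 0.16 without it.

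The D-type cyclins and CDK inhibitors were not called either. Ccnd3, a cyclin D prominent in blood cells, measured 11.43, 10.89 and 10.68 in G-CSF osteoblasts and 9.85, 11.86 and 10.14 in untreated osteoblasts, with a change of 0.38 ± 0.41 (SE; adjusted p = 0.878). It followed the order of the mitosis genes over the arrays. Ccnd1, the cyclin D of many connective tissue cells, measured 10.78, 10.23 and 10.60 in G-CSF osteoblasts and 11.31, 9.94 and 10.24 in untreated osteoblasts, so that its lowest value was on the array where the mitosis genes were highest. Its change was 0.04 ± 0.29 (SE; adjusted p = 0.985). Cdkn1a, the inhibitor induced by p53, measured 12.61, 13.06 and 13.14 in G-CSF osteoblasts and 13.16, 13.50 and 13.51 in untreated osteoblasts. Its groups did not overlap, though the nearest arrays were almost level, and the change was -0.45 ± 0.31 (SE; adjusted p = 0.752). Cdkn1c, an imprinted inhibitor linked to quiescence, measured 10.36, 11.82 and 11.68 in G-CSF osteoblasts and 10.64, 11.13 and 10.89 in untreated osteoblasts, a change of 0.40 ± 0.35 (SE; adjusted p = 0.83). No gene had all G-CSF arrays above all untreated ones, and Mcm2 and Cdkn1a had them all below, against 3.61% and 5.69% of all genes.

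The comparison depended on untreated replicate 2. Without that array, 3 of 39 genes rose with G-CSF and none fell, where 3.17% of all genes rose and 0.364% fell. Bub1 was higher by 1.55 ± 0.38 (SE; adjusted p = 0.0343 in limma with Benjamini-Hochberg adjustment). Cdc20, the activator of the anaphase-promoting complex, was higher by 1.22 ± 0.29 (SE; adjusted p = 0.0308), with values of 12.03, 12.77 and 12.56 in G-CSF osteoblasts against 10.91 and 11.56 on the remaining untreated arrays. Aurka, the kinase of spindle poles, was higher by 1.07 ± 0.28 (SE; adjusted p = 0.0490), with values of 9.58, 9.23 and 8.88 against 7.95 and 8.36. For each of these 3 genes every G-CSF array lay above both remaining untreated arrays. The calls did not hold when G-CSF replicate 2 was left out too, which removes both osteoblast arrays of that number. The changes were then 1.57 for Bub1, 1.06 for Cdc20 and 1.07 for Aurka, with adjusted p-values of 0.0834, 0.112 and 0.111. Of the 39 genes 0 were called, where 341 of 13453 genes were. Bub1 also has a dimmer probe set that ran the other way, at -0.49 with all arrays and -0.18 without untreated replicate 2, so its rise rests on 1 of 2 probe sets. The 3 probe sets of Cdc20 were all above 0 without the array, by 0.72 to 1.39. All 17 mitosis genes were above 0 with a median change of 0.99, and 15 of them did not overlap between the groups. The S phase genes had a median change of 0.30, with 13 of 15 above 0 and 4 not overlapping in that direction. Of all 39 genes, 34 were above 0 (47.3% of all genes tested), 20 lay wholly above the untreated arrays (12.9%) and 2 wholly below (14.3%). Untreated replicate 2 had been the highest osteoblast array for 30 of the 39 genes. Leaving it out raises these counts by construction, so they are not support for a rise with G-CSF.

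Neutrophil, leukocyte and some monocyte markers moved with these genes. Without untreated replicate 2, 7 of 7 neutrophil precursor markers and 9 of 10 mature neutrophil markers were called higher in G-CSF osteoblasts. So were 8 of 8 leukocyte markers and 5 of 9 monocyte markers. Of the B lineage markers 0 of 11 and of the erythroid markers 0 of 8 were called in either direction. The erythroid averages were nonetheless lower, at 7.60 to 8.68 in G-CSF osteoblasts against 9.50 and 9.52 on untreated replicates 1 and 3. The B lineage averages of the G-CSF arrays also lay below those of the untreated arrays, though the nearest arrays were almost level. The median change was 2.88 for the neutrophil precursor markers and 2.89 for the leukocyte markers. The part of these cells in the rise of Bub1, Cdc20 and Aurka was not tested. Replicate numbers were taken as pairs from the data, since no label states a pairing. G-CSF minus untreated was above 0 for 17 of 17 mitosis genes in pair 1 (median 1.36). The count was 0 of 17 in pair 2 (median -1.08) and 17 of 17 in pair 3 (median 0.53). Of all genes, 43.4%, 47.3% and 50.6% were above 0 in pairs 1, 2 and 3. Within the arrays printed with more decimals, that is replicates 2 and 3 alone, 0 of 39 genes were called. Bub1 changed by 0.44 (adjusted p = 0.944) and Cdc20 by 0.30 (adjusted p = 0.960). Aurka turned to -0.20 (adjusted p = 0.984). Among the arrays printed with 1 decimal, which leave replicate 1 alone in each osteoblast group and assume that it varies like the endothelial groups, 2 of 39 genes rose, Plk1 and Kif20a, where 345 of 13453 genes were called. Bub1, Cdc20 and Aurka were not among them (adjusted p = 0.148, 0.237 and 0.0660).

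**Figure D3:**
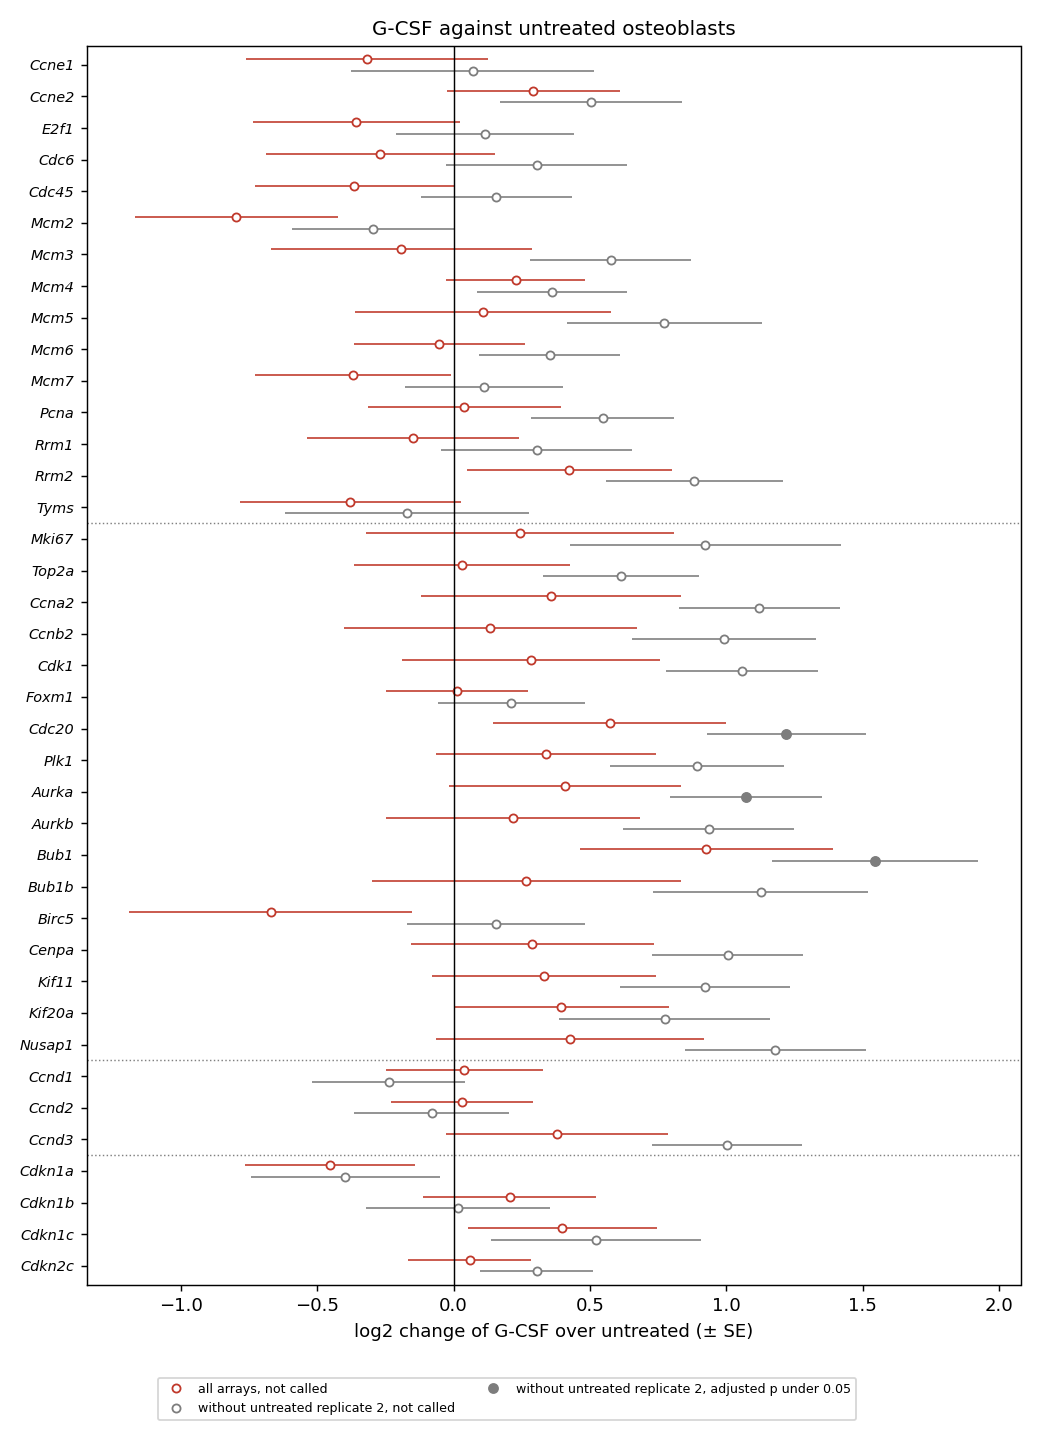
Change of each gene in G-CSF over untreated osteoblasts, as a log2 difference with its standard error, from all arrays (red) and without untreated replicate 2 (grey), with filled points for an adjusted p under 0.05. No red point is filled, and without the array the mitosis genes lie between 0.16 and 1.55, with Cdc20, Aurka and Bub1 called.

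G-CSF against untreated endothelial cells gave no called gene among the 39 either. Over all genes 0.453% were called higher and 1.14% lower. At an unadjusted p under 0.05 the set had 0 higher and 2 lower, Ccnd1 and Ccnd2, against 4.22% and 8.9% of all genes. The median change was 0.05 for the S phase genes (8 of 15 above 0), 0.15 for the mitosis genes (12 of 17 above 0) and -0.05 for all genes, of which 42.6% were above 0. Of all 39 genes, 23 were above 0 with a median of 0.09. Without G-CSF replicate 4, 13 were above 0 and the median was -0.11, so the direction of these medians rested on that array. Centring each array on its median gave 30 above 0.

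Ccnd1 and Ccnd2 had the lowest p-values of the 39 in this comparison. Ccnd1 measured 10.18, 10.15, 10.53 and 10.09 in G-CSF endothelial cells and 10.88, 11.03, 11.07 and 10.70 in untreated endothelial cells. Every treated array lay below every untreated one, which held for this gene alone among the 39 and for 5.62% of all genes. The means were 10.24 ± 0.20 in G-CSF endothelial cells and 10.92 ± 0.17 in untreated endothelial cells (SD, n = 4 each), a change of -0.68 ± 0.25 (SE; adjusted p = 0.216). It was called when the endothelial arrays were fitted alone (adjusted p = 0.0359) or with array weights (adjusted p = 0.0248), and the adjusted p reached 0.469 over the alternatives. Ccnd2, the second of the 3 D-type cyclins, measured 10.88, 11.11, 10.42 and 10.55 in G-CSF endothelial cells and 11.68, 11.51, 11.26 and 10.75 in untreated endothelial cells. Only untreated replicate 4 lay within the treated range, and the change was -0.56 ± 0.23 (SE; adjusted p = 0.281). Osteoblast markers averaged 9.06 to 11.99 in G-CSF endothelial cells and 11.39 to 13.14 in untreated endothelial cells, and Pth1r fell by 2.19 and Alpl by 1.59, the 2 called of 8, and their part in the cyclin values was not tested.

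Among the other roles, Ccne1, the cyclin that opens S phase, measured 9.05, 9.32, 9.82 and 10.66 in G-CSF endothelial cells and 10.69, 9.76, 10.33 and 10.89 in untreated endothelial cells. The groups overlapped through G-CSF replicate 4, and the change was -0.71 ± 0.39 (SE; adjusted p = 0.488). Its probe set, like those chosen for Mcm4, Mcm5, Mcm6, Rrm2, Cdc20 and Aurkb, has the suffix that Affymetrix gives to sets prone to cross-hybridise. Mcm2 measured 9.58, 10.12, 10.18 and 10.87 in G-CSF endothelial cells and 10.75, 10.66, 10.38 and 10.28 in untreated endothelial cells, a change of -0.33 ± 0.32 (SE; adjusted p = 0.787). As for most S phase genes, replicate 4 was the highest treated array.

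Kif20a, a kinesin of the cleavage furrow, measured 7.81, 7.74, 7.99 and 8.48 in G-CSF endothelial cells and 7.45, 7.67, 7.70 and 7.31 in untreated endothelial cells. All treated arrays lay above all untreated ones, as for 4.65% of all genes, with a change of 0.47 ± 0.34 (SE; adjusted p = 0.672). Bub1 measured 7.69, 7.35, 7.78 and 8.14 in G-CSF endothelial cells and 7.81, 7.63, 7.11 and 6.56 in untreated endothelial cells, a change of 0.47 ± 0.40 (SE; adjusted p = 0.746). Cdkn1a measured 13.66, 13.97, 12.73 and 13.54 in G-CSF endothelial cells and 13.43, 12.40, 13.22 and 13.36 in untreated endothelial cells. G-CSF replicate 3 and untreated replicate 2 were low, and the change was 0.37 ± 0.27 (SE; adjusted p = 0.672). Cdkn1b, an inhibitor of cyclin E and cyclin A kinases, measured 10.53, 10.21, 10.29 and 10.33 in G-CSF endothelial cells and 10.12, 10.48, 10.01 and 9.51 in untreated endothelial cells, a change of 0.31 ± 0.27 (SE; adjusted p = 0.755). By replicate number, the median G-CSF minus untreated difference of the 39 genes was -0.08, -0.37, 0.12 and 0.45 in pairs 1 to 4.

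The difference between the G-CSF changes, osteoblast minus endothelial, was not called for any of the 39 genes, nor for any gene tested (0%). At an unadjusted p under 0.05, 0 of the 39 differed, where 3.31% of all genes were higher and 1.32% lower. The differences ran from -0.83 ± 0.41 for Cdkn1a to 0.72 ± 0.38 for Ccnd1 (SE; adjusted p = 1.00 for both), with 23 of 39 above 0 (54.5% of all genes). That count was 11 without untreated osteoblast replicate 1, 35 without untreated osteoblast replicate 2 and 14 with each array centred on its median, so a difference in response between the sorts was not detectable with these arrays. Ccnd1 changed by 0.04 in osteoblasts and by -0.68 in endothelial cells, and Cdkn1a by -0.45 in osteoblasts and by 0.37 in endothelial cells. Mki67 changed by 0.24 in osteoblasts and by -0.40 in endothelial cells, a difference of 0.64 ± 0.75 (SE; adjusted p = 1.00). Without untreated osteoblast replicate 2 the largest difference was 1.32, for Mki67, and 0 of 39 genes were called (0.134% of all genes higher and 0.0223% lower).

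Osteoblast against endothelial cells asked where the sorts themselves differ, and each treatment state was compared on its own. Mki67, Ccnd2 and Ccne2 were higher and Cdkn1c lower in osteoblasts than in endothelial cells in both states, and Top2a and Kif11 were also higher after G-CSF. The rest of the 39 were called in neither state. Of 39 genes, 5 were higher and 1 lower after G-CSF, where 17.5% and 14.4% of all genes were called. In untreated cells 3 were higher and 1 lower, where 13.6% and 12.8% of all genes were. These counts are 12.8% and 2.56% of the 39 genes after G-CSF and 7.69% and 2.56% in untreated cells, below the shares of all genes. After G-CSF 24 of the 39 were above 0 (51.2% of all genes), 6 lay wholly above the endothelial arrays (21.4%) and 4 wholly below (18%). In untreated cells 25 were above 0 (50.1%), 4 lay wholly above (16.7%) and 1 wholly below (15.9%). The 2 comparisons use different arrays but share 1 estimate of the spread.

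Mki67, a nuclear protein that coats mitotic chromosomes and is the standard marker of cycling cells, differed most. It measured 12.69, 12.60 and 11.66 in G-CSF osteoblasts and 8.89, 7.43, 8.74 and 9.37 in G-CSF endothelial cells. In untreated cells it measured 11.49, 13.43 and 11.29 in osteoblasts and 9.58, 8.21, 8.88 and 9.34 in endothelial cells. All 6 osteoblast arrays lay above all 8 endothelial arrays, with 11.29 as the lowest osteoblast and 9.58 as the highest endothelial value. The limma change was 3.70 ± 0.53 after G-CSF, or 13.04-fold (SE; adjusted p = 8.01e-05), and 3.07 ± 0.53 in untreated cells, or 8.37-fold (SE; adjusted p = 5.48e-04). It kept its call under every alternative run, between 3.31 and 4.08 after G-CSF and between 2.39 and 3.45 in untreated cells, where 2.39 is the value without untreated osteoblast replicate 2. Mki67 was read by 1 probe set.

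The other mitosis genes of the set did not follow Mki67 to that extent. Some mitosis genes outside the set, Smc4 and Cenpe among them, came closer to it, as given below. Top2a, the topoisomerase that untangles replicated DNA, measured 11.65, 11.35 and 10.87 in G-CSF osteoblasts and 10.05, 9.59, 10.21 and 10.67 in G-CSF endothelial cells, a change of 1.16 ± 0.37 (SE; adjusted p = 0.0261). In untreated cells it measured 10.68, 12.43 and 10.67 in osteoblasts and 10.15, 10.48, 10.13 and 10.21 in endothelial cells, a change of 1.02 ± 0.37 (SE; adjusted p = 0.0554). Every osteoblast array lay above every endothelial array of the same state. Kif11, the kinesin that pushes spindle poles apart, measured 8.71, 8.21 and 8.14 in G-CSF osteoblasts and 7.25, 6.51, 7.43 and 7.10 in G-CSF endothelial cells, a change of 1.28 ± 0.38 (SE; adjusted p = 0.0191). In untreated cells it measured 7.70, 9.20 and 7.16 in osteoblasts and 7.26, 7.42, 7.56 and 7.20 in endothelial cells, with 1 osteoblast array below and 2 above all endothelial ones.

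The calls of Top2a and Kif11 after G-CSF were close to the threshold. Without G-CSF osteoblast replicate 1 the adjusted p was 0.101 for Top2a and 0.0777 for Kif11, and without G-CSF endothelial replicate 2 it was 0.0790 for Top2a and 0.0594 for Kif11. Top2a also lost its call without G-CSF osteoblast replicate 2 (adjusted p = 0.0707) or G-CSF endothelial replicate 1 (adjusted p = 0.0534). With the printed decimals as a batch term the adjusted p was 0.113 for Top2a and 0.0639 for Kif11. Kif11 also lost its call with quantile normalisation (adjusted p = 0.0891). The same held with probe sets without a suffix, where another probe set stood for it (adjusted p = 0.0598). Among the other mitosis genes, Cdk1 differed by 0.43 after G-CSF and 0.24 in untreated cells, and the median of the 17 was 0.30 after G-CSF and 0.14 in untreated cells, against 0.02 and 0.00 for all genes.

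Ccnd2 was the D-type cyclin that separated the sorts. It measured 11.90, 12.06 and 12.51 in G-CSF osteoblasts and 10.88, 11.11, 10.42 and 10.55 in G-CSF endothelial cells, a change of 1.42 ± 0.24 (SE; adjusted p = 4.26e-04). In untreated cells it measured 12.10, 11.90 and 12.37 in osteoblasts and 11.68, 11.51, 11.26 and 10.75 in endothelial cells, a change of 0.83 ± 0.24 (SE; adjusted p = 0.0210). All osteoblast arrays lay above all endothelial ones, and untreated osteoblast replicate 2, the highest for most mitosis genes, was among the 2 lowest osteoblast arrays here. All 7 probe sets of Ccnd2 were above 0 in both states, by 0.28 to 1.42 after G-CSF and 0.24 to 0.83 in untreated cells. The untreated call was lost without untreated osteoblast replicate 1 (adjusted p = 0.0546) or 3 (adjusted p = 0.0940), without untreated endothelial replicate 4 (adjusted p = 0.0655) and with the decimals as a batch term (adjusted p = 0.116). It was also lost with each array centred on its median (adjusted p = 0.0839), with the mean of the probe sets (adjusted p = 0.0869) and among arrays printed with 1 decimal (adjusted p = 0.113). Ccnd1 differed by 0.30 after G-CSF and -0.42 in untreated cells and Ccnd3 by -0.09 and 0.01 in the same order, none of them called.

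Ccne2, the second cyclin E, was the S phase gene that was called. It measured 9.12, 9.03 and 8.42 in G-CSF osteoblasts and 7.53, 7.36, 7.57 and 8.24 in G-CSF endothelial cells, a change of 1.18 ± 0.30 (SE; adjusted p = 0.00668). In untreated cells it measured 8.56, 8.99 and 8.14 in osteoblasts and 7.63, 7.42, 7.79 and 6.90 in endothelial cells, a change of 1.12 ± 0.30 (SE; adjusted p = 0.0111). The groups did not overlap in either state, and the adjusted p was at most 0.0389 when 1 array was left out. Its partner Ccne1 differed by 0.34 after G-CSF and -0.05 in untreated cells and was not called. The other S phase genes ran on both sides of 0, with a median of -0.06 after G-CSF and -0.05 in untreated cells.

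Cdkn1c ran the other way. It measured 10.36, 11.82 and 11.68 in G-CSF osteoblasts and 12.56, 13.03, 12.07 and 13.02 in G-CSF endothelial cells, a change of -1.38 ± 0.33 (SE; adjusted p = 0.00444), or 2.61-fold lower in osteoblasts. In untreated cells it measured 10.64, 11.13 and 10.89 in osteoblasts and 12.49, 12.83, 12.43 and 13.003 in endothelial cells, a change of -1.80 ± 0.33 (SE; adjusted p = 8.01e-04), or 3.49-fold lower. Every osteoblast array lay below every endothelial array, and Cdkn1c kept its call under every alternative run. Cdkn1a, Cdkn1b and Cdkn2c were called in neither state.

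**Figure D4:**
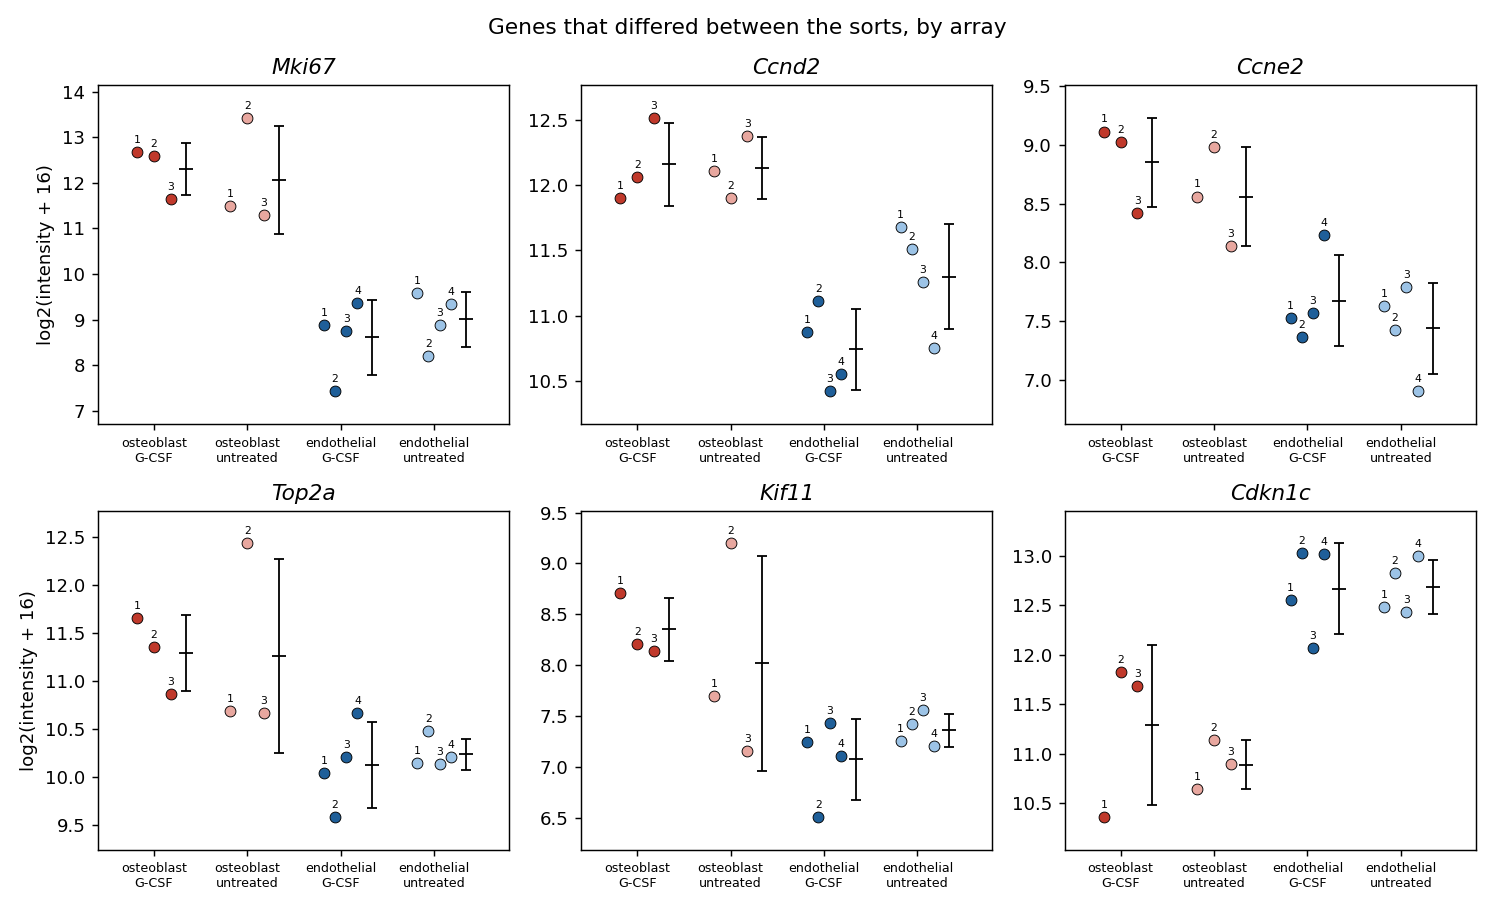
log2(intensity + 16) of the 6 genes called between the sorts, on each array, with replicate numbers beside the points and bars for the mean ± SD of each group. Mki67, Ccnd2 and Ccne2 are higher and Cdkn1c lower on every osteoblast array than on the endothelial arrays of the same state, while for Kif11 untreated osteoblast replicate 3, at 7.16, lies below every untreated endothelial array.

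Markers of other cells differed between the sorts as follows. None of the 7 neutrophil precursor, 10 mature neutrophil or 8 leukocyte markers was called in either state, 1 of 11 B lineage markers was higher in osteoblasts in each state, and 1 of 8 erythroid markers was lower after G-CSF. The 6 measured of 7 megakaryocyte markers averaged 7.08 to 8.15 in G-CSF osteoblasts and 7.79 to 9.40 in G-CSF endothelial cells. In untreated cells they averaged 7.25 to 8.87 in osteoblasts and 8.22 to 10.49 in endothelial cells. Averages of the monocyte markers and of the T and NK cell markers overlapped between the sorts in both states. Skeletal muscle markers averaged 6.20 to 6.78 in G-CSF osteoblasts and 7.01 to 8.53 in G-CSF endothelial cells, and 6.29 to 6.96 in untreated osteoblasts and 7.81 to 13.31 in untreated endothelial cells, and 2 of 8 were lower in osteoblasts after G-CSF and 7 of 8 in untreated cells. Without untreated endothelial replicate 1, the highest for them, 3 genes were higher and 1 lower in untreated cells, as with it. The other untreated endothelial arrays kept muscle marker averages of 7.81 or more, above the untreated osteoblast arrays. The part of these cells in the differences was not tested.

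Untreated osteoblast replicate 2 also bore on this comparison. Being the highest osteoblast array for most of these genes, it lowers their differences by construction when left out. Without it, 3 genes were higher and 8 lower in untreated osteoblasts, where 16.3% and 17.5% of all genes were called. These counts are 7.69% and 20.5% of the 39, so the share called lower was near that of all genes. Mki67 was higher by 2.39, Ccnd2 by 0.94 and Ccne2 by 0.91. Cdkn1c fell by 1.92, and the 7 other genes that were lower were Mcm3, which fell by 1.46, Cenpa by 1.33, Cdc6 by 1.05, Pcna by 0.95, Mcm6 by 0.85, Aurka by 0.82 and Ccna2 by 0.79. These 7 are S phase or mitosis genes, as are 32 of the 39. The median of the 39 was -0.43 without the array, with 10 above 0 (47.8% of all genes), and 0.09 with it. After G-CSF, where the array enters only through the shared spread, 6 were higher (Bub1 in addition) and 4 lower (Mcm2, Mcm3 and Mcm6 in addition), against 19.5% and 16.7% of all genes. Of the 32 S phase and mitosis genes, 7 were above 0 without the array and 20 with it, while Mki67, Ccnd2, Ccne2 and Cdkn1c kept their calls. Neutrophil precursor markers of the remaining untreated osteoblast arrays averaged 8.61 and 8.999, against 10.50 to 11.23 in untreated endothelial cells. The part of blood cells was not tested. The arrays printed with 1 decimal leave 1 osteoblast array a state. Among them Mki67 differed by 2.48 in untreated cells and 4.08 after G-CSF, and Cdkn1c by -2.05 and -2.31 in the same order.

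Centring each array on its median moved the median difference between the sorts for all genes to -0.37 after G-CSF and -0.23 in untreated cells. With that scaling Mki67, Ccnd2 and Cdkn1c had the same directions in both states, though Ccnd2 lost its call in untreated cells (0.60, adjusted p = 0.0839). After G-CSF 2 genes were higher and 4 lower, and Ccne2, Kif11 and Top2a lost their calls (adjusted p = 0.0563, 0.0828 and 0.124).

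**Figure D5:**
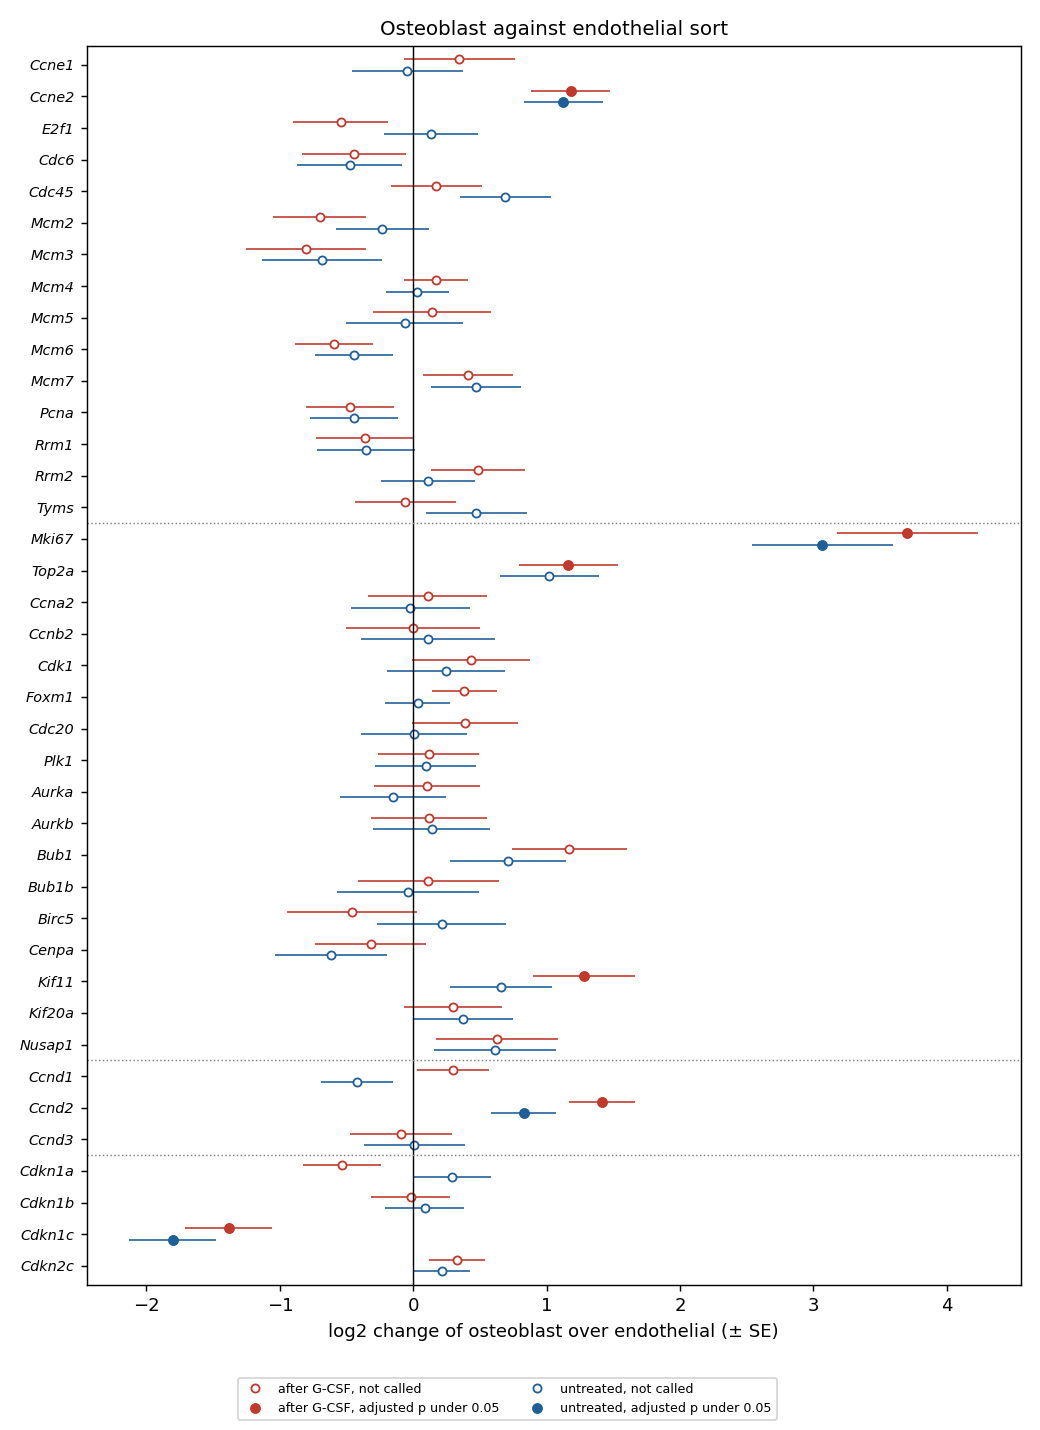
Change of each gene in osteoblasts over endothelial cells, as a log2 difference with its standard error, after G-CSF (red) and in untreated cells (blue), with filled points for an adjusted p under 0.05. Mki67 stands at 3.70 and 3.07, Ccnd2 and Ccne2 are filled to the right and Cdkn1c to the left in both states, and most S phase and mitosis genes lie within 1 of 0.

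Other genes of the cycle, from lists of 47 mitosis genes, 35 S phase genes and 27 G1 regulators and arrest genes, gave the following counts, beside which 17.5% of all genes were higher and 14.4% lower in osteoblasts after G-CSF, and 13.6% higher and 12.8% lower in untreated cells. Between the sorts after G-CSF, 11 of 43 measured mitosis genes were higher in osteoblasts and 0 lower, and in untreated cells 9 were higher and 1 lower. The largest differences were those of Smc4 of condensin (3.29 after G-CSF and 2.95 in untreated cells), Cenpe, the kinetochore motor (2.90 and 2.87), and Cenpf, another kinetochore protein (2.69 and 1.70). Of 32 S phase genes, 3 were higher after G-CSF (Chek1, the checkpoint kinase, by 1.20, Pola1, of DNA polymerase alpha, by 0.99 and Orc1, of the origin recognition complex, by 0.85) and 1 in untreated cells (Pola1, by 0.85), with none lower. Of 25 G1 regulators, 5 were higher and 4 lower after G-CSF and 3 were higher and 2 lower in untreated cells, led by Id1, an inhibitor of differentiation factors, which was lower by 2.32 after G-CSF and by 2.54 in untreated cells.

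None of these further genes was called for G-CSF in either sort with all arrays. Without untreated osteoblast replicate 2, Kif2c, a microtubule depolymerase, rose by 1.60, Ect2, which places the cleavage furrow, by 1.29 and Kif22, a chromosome motor, by 1.02, as the 3 called of 43 mitosis genes in G-CSF osteoblasts. All 43 were above 0 there, with a median of 0.76, under the same limit on leaving out that array. Of 32 S phase genes, 1 rose, Dbf4, the activator of the Cdc7 kinase, by 0.95. Of 25 G1 regulators, 4 rose, led by Cdkn3 (1.91), E2f8 (1.58) and E2f2 (1.55). Of all genes, 3.17% rose there.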

How the data were processed

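RNA of 14 sorted samples was measured on Affymetrix mouse arrays. The deposited values are linear intensities per probe set, made by the authors with Affymetrix Expression Console 1.1, per the submitters' processing notes. The summarising algorithm is not given in the sources used here, and the trimmed mean of about 500 per array was found in the values. Of 45101 probe sets, 64 controls, 932 with several symbols and 9160 with none were left out, which left 34945 probe sets of 18193 symbols. The brightest probe set of each symbol was kept, and genes in the dimmest 0.333 of all probe sets were dropped, which left 13453 genes.

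Values were log2(intensity + 16). limma 3.58.1 in R 4.3.3 fitted 4 group means over all 14 arrays with a mean-variance trend, and p-values were adjusted by Benjamini-Hochberg over the 13453 genes in each of 5 comparisons. Full values are given for up to 6 called genes a comparison or, where none was called, for the 2 of each role with the largest absolute change. Other genes of the cycle and markers were named where called and among the 3 largest changes of their list, and Cdk1 and Mcm5, among others, were chosen after their values were seen. The members and lists were chosen with earlier results of these data known. The fit was tested on simulated data. No 2 arrays held identical values.

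Same-numbered arrays of 1 sort deviated together (r = 0.223, 0.288 and 0.315 in osteoblasts and 0.239, 0.377, 0.281 and 0.102 in endothelial cells), so the numbers were taken as pairs, from the data and not from a label. Differently numbered arrays had r of at most 0.0145 in osteoblasts and 0.178 in endothelial cells. That 0.178 joined G-CSF endothelial replicate 4 to untreated replicate 1, above its same-number value of 0.102, so number 4 was not clearly a pair. Deviations were taken from each group's own mean, so they sum to 0 within a group. A same-number r above 0 then pulls the other r down, and their low values are not separate support for pairs. Alternatives covered the pseudocount, normalisation, filter, probe set choice, arrays fitted, prior, array weights, the pairing and leaving out each array. Those on printed decimals, on arrays left out together and on the pairing across sorts were added after seeing the data. Promoters came from RefSeq, GRCm38.p6, with 9 genes without an entry.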

Additional observations from a re-analysis of the deposited data

Results flagged for a closer look

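In groups of 4 arrays, 8 of 114 sets of values held an array whose gap to the others, over the range, exceeded Dixon's 95% critical value, where chance gives about 1 in 20. Only the endothelial groups are large enough for this check. Of the 78 sets for single cell cycle genes, 2 did so. Cdc6, the loader of the Mcm helicase, measured 10.35 in G-CSF endothelial replicate 4 and 9.19 to 9.32 in the other G-CSF arrays. Tyms, the thymidylate synthase, measured 7.62 in G-CSF endothelial replicate 3 and 6.04 to 6.31 in the others.

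The mean of the 4 CDK inhibitors was 11.29 in G-CSF endothelial replicate 3 and 11.68 to 11.76 in the other G-CSF arrays. The erythroid markers averaged 9.78 in G-CSF endothelial replicate 4 and 7.36 to 7.63 in the others, and the T and NK cell markers averaged 8.69 there and 8.08 to 8.16 in the others. The skeletal muscle markers averaged 7.01 in G-CSF endothelial replicate 3 and 8.32 to 8.53 in the others. The G1 regulators averaged 9.85 in untreated endothelial replicate 1 and 10.07 to 10.09 in the other untreated arrays. The monocyte and macrophage markers averaged 8.54 in untreated endothelial replicate 4 and 9.69 to 9.74 in the others.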

How the results depend on the processing

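With the replicate block within a cell type, 0 of 39 genes were called in either G-CSF comparison or their difference, as without it. A block across cell types gave 4 higher and 1 lower between the untreated sorts. Same-numbered arrays of the 2 sorts had r from -0.011 to 0.043 after G-CSF. In untreated cells r was 0.0012, 0.271 and 0.122 for numbers 1, 2 and 3. For G-CSF in osteoblasts, 0 to 3 genes were higher when 1 array was left out (3 without untreated osteoblast replicate 2), 2 with untreated endothelial replicate 1 left out as well, 0 with osteoblast number 2 left out of both groups and 2 among arrays with 1 decimal. For G-CSF in endothelial cells, 1 gene (Ccnd1) was lower when those arrays were fitted alone and with array weights.

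The counts in this section show how calls moved with the settings and are not a result about the set. Between the untreated sorts, 5 genes were higher with probe sets without a suffix. In that comparison 4 were lower with array weights, 8 without the 2 arrays named above and 2 with the decimals as a batch term. Without the 2 arrays 15.7% of all genes were lower, against 20.5% of the 39. Leaving out 1 array gave 2 to 3 higher and 1 to 8 lower. After G-CSF, centring on the median gave 2 higher and 4 lower. In the same state 2 were lower when those arrays were fitted alone, 4 without the 2 arrays and 2 with the decimals term. Without the 2 arrays 16.2% of all genes were lower, against 10.3% of the 39. Leaving out 1 array gave 3 to 6 higher and 1 to 4 lower. The causes were not tested, beyond the fewer arrays.

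Among the genes given full values, signs turned only for those not called with all arrays. Aurka, called in G-CSF osteoblasts without untreated replicate 2, was -0.20 among osteoblast arrays with more decimals. Ccnd1 in G-CSF osteoblasts was -0.037 with array weights, -0.24 without the 2 arrays, -0.084 without osteoblast number 2 of both groups, -0.53 among arrays with 1 decimal and -0.24 to 0.45 when 1 array was left out. Cdkn1c was -0.28 in G-CSF osteoblasts and -0.26 in the difference between the sorts among arrays with 1 decimal. Ccnd3 was -0.22 among osteoblast arrays with more decimals and -0.0060 to 1.00 when 1 was left out. Birc5 was 0.16 without the 2 arrays, 0.10 without osteoblast number 2, 0.12 among arrays with 1 decimal and -1.11 to 0.16 when 1 was left out, and its difference between the sorts was 0.20 without the 2 arrays, 0.12 among arrays with 1 decimal and -1.11 to 0.16 when 1 was left out. With 3 or 4 arrays a group, small changes of these genes could not be resolved. Some arrays held much blood cell marker signal, and its part in the cell cycle values was not tested.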
